A study of Mus musculus with 4 samples.

Results

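A set of 10 genes of bone morphogenetic protein (BMP) signaling and its targets were followed in spinal cord of mice lacking the chromatin remodeler CHD7 in the oligodendrocyte lineage. It holds the ligand Bmp4, the receptor Bmpr1a, the signal transducers Smad1, Smad6 and Smad7, the transcription factor Zeb2, and the inhibitors of DNA binding Id1, Id2, Id3 and Id4. Members were taken by symbol, and all 10 were found among 21249 gene symbols with a usable transcript of at least 300 bases, each as 1 RefSeq transcript.

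RNA was sequenced from whole cord at postnatal day 8, in 2 control libraries (Chd7f/+; Olig1-cre) and 2 conditional knockout libraries (cKO, Chd7f/f; Olig1-cre), on a mixed strain background. Both groups expressed Cre from Olig1, which is active in oligodendrocyte precursors and their progenitors, and carried at least 1 floxed Chd7 allele, so the controls are heterozygous for the deletion in Cre-expressing cells. Cells in which Cre was never active keep CHD7 and contribute RNA to every library. The labels do not say whether the libraries of a group came from separate animals. The p-values rest on the spread between these libraries, mostly pooled over genes and little on a gene's own. Between the controls this spread may be technical. Sex-linked genes, given below, differed between cKO 1 and cKO 2.

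BMP ligands bind receptor pairs of type I and type II serine/threonine kinases, and the type I receptors phosphorylate SMAD1, SMAD5 and SMAD9, which enter the nucleus with SMAD4 and switch on target genes, the Id genes foremost among them. ID proteins have a helix-loop-helix but no DNA-binding region, and they hold basic helix-loop-helix factors away from DNA. In the cord, BMP signaling is known for turning precursors toward astrocytes and for holding back myelin formation. SMAD6 and SMAD7 dampen the signal inside the cell, and ZEB2, a zinc finger and homeodomain protein that binds activated SMADs, is known as a driver of myelination that raises Smad7.

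The values are FPKM, fragments per kilobase of transcript scaled to the depth of the library, which allow levels of different genes to be set side by side. Relative sequencing depth ranged from 1.0 in control 2 to 3.19 in cKO 2. Chd7 was at 3.52 and 3.12 FPKM in control libraries 1 and 2 against 2.52 and 3.38 FPKM in cKO 1 and 2, and it did not pass the test (limma adjusted p = 0.657). A whole-cord sum over a gene whose floxed part is not given in the labels checks the genotypes little. Control 1 stood apart by 8 markers of meninges and fibroblasts, which summed to 263 FPKM there and to between 35.5 and 58.2 FPKM in the other libraries. Its 8 Schwann cell markers summed to 121 FPKM, against 23.8 to 33.2 FPKM elsewhere. Control 2 stood apart by 6 blood markers, which summed to 120 FPKM there and to between 4.36 and 16.7 FPKM in the other libraries. Xist ranged from 51.8 to 55.6 FPKM over the controls and was at 19.6 in cKO 1 and 0.23 in cKO 2. Ddx3y, a Y-linked gene, was at 11.6 FPKM in cKO 2 and at most 0.20 FPKM in the others. Libraries cKO 1 and cKO 2 were thus not repeats of 1 animal, and sex was not balanced between the groups. The part of sex in the results was not tested. All 8 neuron markers and all 8 markers of myelinating oligodendrocytes were above 0 in every library.

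Bmp4, Smad7, Zeb2 and Id3 fell in cKO cords, by 1.89 to 2.73 times in mean FPKM, and Id2 rose by 1.55 times. Bmpr1a, Smad1, Id1 and Id4 did not pass the test, and Smad6 lay under the filter of a mean of 1 FPKM and was not tested. Calls are limma on log2(FPKM + 1) over 12913 genes with Benjamini-Hochberg adjusted p under 0.05. Of the 9 tested genes 4 were lower, where 6.54% of all tested genes were, and 1 was higher, where 4.13% were. The genes were chosen with earlier results of these data known, so these shares are a description. Both cKO libraries lay below both controls for 5 of the 9 and above both for 2, against 29.3% and 24.3% of all tested genes. Of all tested genes, 845 were lower and 533 higher. Without cKO 1, the log2 fold changes were -1.19 for Bmp4, -0.82 for Smad7, -0.82 for Zeb2, -0.84 for Id3 and 0.78 for Id2.

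**Figure D1:**
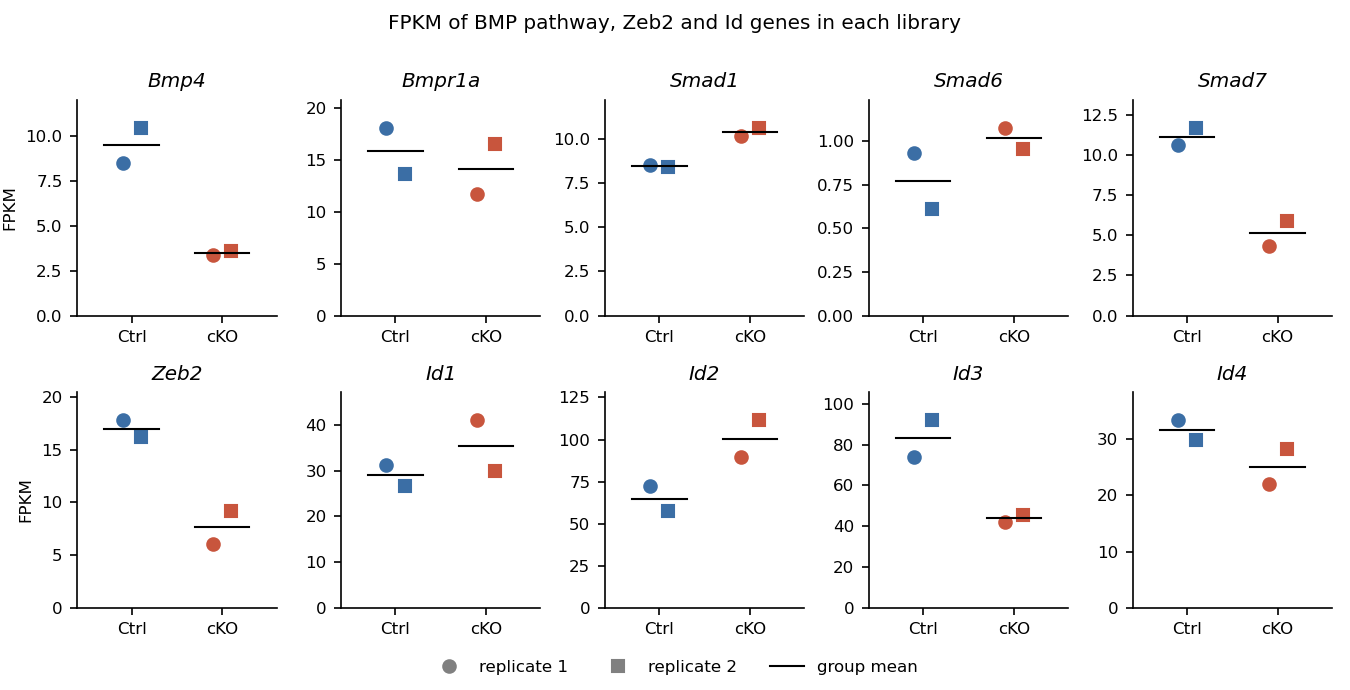
FPKM (vertical axes, linear, from 0) of each gene in the 2 control (blue) and 2 cKO (red) libraries, with circles for replicate 1, squares for replicate 2 and a line at each group mean. Bmp4, Smad7, Zeb2 and Id3 lie lower in both cKO libraries, Id2 lies higher, and the groups of Bmpr1a and Id1 overlap.

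Promoters of 3 called genes are shown here, because Id2 and Id3 are members of 1 family that moved in opposite directions and Bmp4 is the ligand with the largest fall. The 250 bases before the start are printed 5′ to 3′ on the gene's strand, from RefSeq on GRCm38.p6. Capitals mark each match, on either strand, to GGCGCC (a GC-rich element known for SMAD1 and SMAD5), CAGAC (an element known for SMAD3 and SMAD4), CACCTG (an E-box known for ZEB factors) or ACAAAG (an element known for SOX factors). No printed match overlaps another.
Id2 (chr12:25096093-25096342, minus strand): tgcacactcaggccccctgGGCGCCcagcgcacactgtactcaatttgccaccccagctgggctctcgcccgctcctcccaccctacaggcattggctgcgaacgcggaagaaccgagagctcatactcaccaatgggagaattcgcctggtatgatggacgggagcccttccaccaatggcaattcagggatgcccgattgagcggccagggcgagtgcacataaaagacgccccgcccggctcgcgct
Id3 (chr4:136143572-136143821, plus strand): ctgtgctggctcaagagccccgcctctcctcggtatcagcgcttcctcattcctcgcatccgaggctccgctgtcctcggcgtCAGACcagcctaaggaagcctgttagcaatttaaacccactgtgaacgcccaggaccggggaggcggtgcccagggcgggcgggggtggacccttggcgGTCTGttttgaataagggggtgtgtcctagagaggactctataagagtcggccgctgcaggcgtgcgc
Bmp4 (chr14:46390670-46390919, minus strand): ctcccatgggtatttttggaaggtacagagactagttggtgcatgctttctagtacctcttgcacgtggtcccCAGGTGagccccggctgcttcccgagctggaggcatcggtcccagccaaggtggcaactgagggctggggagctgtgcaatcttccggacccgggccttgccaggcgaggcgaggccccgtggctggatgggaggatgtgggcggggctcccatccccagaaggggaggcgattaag

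The Id2 stretch holds GGCGCC 1 time, the Id3 stretch holds CAGAC 2 times (1 on each strand), and the Bmp4 stretch holds CACCTG 1 time, on the opposite strand. In windows of 300 bases that also take in 50 bases after the start, 11.9% of 32851 RefSeq promoters hold GGCGCC, 49.6% CAGAC, 20.2% CACCTG and 18.7% ACAAAG. Of the 10 genes, 8 had a window among these promoters, with 11 windows. Smad7 and Id1 had none and were not searched. The windows of Bmpr1a and Id4 also hold 1 GGCGCC each, and 1 of 4 Zeb2 windows holds ACAAAG. These matches are a description of letters in a window, and binding was not measured.

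Bmp4, the ligand, fell most. The gene (chromosome 14, 47003196 to 47010274 on mm9) was at 8.49 and 10.4 FPKM in control libraries 1 and 2 against 3.35 and 3.57 FPKM in cKO 1 and 2. The groups were far apart, and the cKO libraries lay close together. The group means were 9.47 ± 1.38 and 3.46 ± 0.153 FPKM (SD, n = 2 each). The log2 fold change was -1.22 ± 0.15 (SE, limma adjusted p = 3.71e-07). Log2 fold changes are differences of mean log2(FPKM + 1), so they differ from the log2 ratio of mean FPKM. Ranked by p, Bmp4 was number 33 of all tested genes. Mean depth over the transcript was 5.34 to 12.6 reads per base.

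Bmpr1a, a type I receptor for BMP4, did not pass the test. It was at 18.1 and 13.6 FPKM in the control libraries against 11.7 and 16.5 FPKM in cKO 1 and 2, so the groups overlapped. The log2 fold change was -0.16, with a 95% interval of -0.50 to 0.17 (limma adjusted p = 0.595). Its sign was positive without control 1 (0.0257) and without cKO 1 (0.0664).

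Among the Smads, only Smad7 was called with all libraries. Smad7, an inhibitory Smad that blocks the receptor and recruits ubiquitin ligases to it (chromosome 18, 75527019 to 75555588 on mm9), was at 10.6 and 11.7 FPKM in the control libraries against 4.35 and 5.88 FPKM in cKO 1 and 2. Neither cKO library reached the controls. The means of 11.1 ± 0.771 and 5.12 ± 1.08 FPKM (SD, n = 2 each) gave a log2 fold change of -1.00 ± 0.16 (SE, limma adjusted p = 1.60e-05).

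Smad1, which carries the BMP signal to the nucleus, was at 8.51 and 8.44 FPKM in the control libraries against 10.2 and 10.6 FPKM in the cKO libraries. Both cKO libraries lay above both controls, by little. The log2 fold change of 0.27, with a 95% interval of -0.03 to 0.57, did not pass (limma adjusted p = 0.275). Smad6, the other inhibitory Smad and itself a BMP target, was near the floor at 0.93 and 0.61 FPKM in the control libraries against 1.07 and 0.95 FPKM in the cKO libraries. Its transcript had a mean depth of 0.44 to 2.18 reads per base, so a moderate difference could not be seen. Fitted with no filter on low values, Smad6 had a log2 fold change of 0.19 (limma adjusted p = 0.424).

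Smad7 and Smad1 changed places within the libraries. Smad7 was at 1.25 and 1.39 times the FPKM of Smad1 in the controls and at 0.43 and 0.55 times in the cKO libraries. The exact permutation test on this log2 ratio gave a two-sided p = 0.333, which is the smallest that 2 against 2 libraries can give.

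Zeb2 fell together with Smad7. It was at 17.8 and 16.2 FPKM in the control libraries against 6.10 and 9.20 FPKM in cKO 1 and 2 (chromosome 2, 44839154 to 44968799 on mm9). The groups did not overlap, and cKO 1 was the lower library, as it was for Bmp4, Smad7 and Id3. The group means of 17.0 ± 1.13 and 7.65 ± 2.19 FPKM (SD, n = 2 each) gave a log2 fold change of -1.08 ± 0.16 (SE, limma adjusted p = 9.25e-06). A predicted locus listed as Gm13476 overlaps the 5′ end of Zeb2, and counting by strand is not given in the sources used here, so reads in the shared part cannot be told apart. Its longer transcript was at 3.56 and 3.47 FPKM in the control libraries against 2.03 and 1.91 FPKM in the cKO libraries. Zeb1, the paralog of Zeb2, was at 15.0 and 15.6 FPKM in the control libraries against 13.7 and 14.4 FPKM in the cKO libraries, and it did not pass (log2 fold change -0.11, limma adjusted p = 0.706).

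The Id genes were the most abundant of the set, and they did not move together. Id3 (chromosome 4, 135699737 to 135701307 on mm9) was at 74.1 and 91.9 FPKM in the control libraries against 42.0 and 45.7 FPKM in the cKO libraries. The cKO libraries were close to each other and well below both controls. Its log2 fold change was -0.90 ± 0.18 (SE, limma adjusted p = 4.34e-04), with group means of 83.0 ± 12.6 and 43.8 ± 2.59 FPKM (SD, n = 2 each).

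Id2 (chromosome 12, 25778664 to 25780957 on mm9) was at 72.4 and 57.5 FPKM in the control libraries against 89.4 and 111 FPKM in the cKO libraries. The direction is opposite to that of Id3, and the groups did not overlap, although control 1 and cKO 1 lay near each other. The means of 64.9 ± 10.5 and 100.4 ± 15.6 FPKM (SD, n = 2 each) gave a log2 fold change of 0.62 ± 0.19 (SE, limma adjusted p = 0.0233). This was the weakest of the 5 calls. It did not pass without control 2 (0.46, adjusted p = 0.292), without cKO 2 (0.46, adjusted p = 0.170), or with a replicate block (adjusted p = 0.0601).

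Id1 was at 31.3 and 26.7 FPKM in the control libraries against 41.0 and 30.0 FPKM in the cKO libraries, with overlapping groups. Its log2 fold change was 0.27, with a 95% interval of -0.07 to 0.61 (limma adjusted p = 0.346). Id4 was at 33.3 and 29.7 FPKM in the control libraries against 22.0 and 28.1 FPKM in the cKO libraries. Both cKO libraries of Id4 lay lower, cKO 2 by little, and the log2 fold change of -0.33, with a 95% interval of -0.66 to 0.00338, did not pass (limma adjusted p = 0.212).

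Summed over the 4 Id genes the level hardly differed, at 211 and 206 FPKM in the control libraries against 194 and 215 FPKM in the cKO libraries. What differed was the makeup of that sum. Id3 gave 35.1% and 44.6% of it in the controls and 21.6% and 21.2% in the cKO libraries, while Id2 gave 34.3% and 27.9% in the controls and 46.0% and 51.8% in the cKO libraries. Id2 was at 0.98 and 0.63 times the level of Id3 in the controls and at 2.13 and 2.44 times in the cKO libraries. This ratio differed by 1.54 on the log2 scale (exact permutation test, two-sided p = 0.333, the smallest possible here). The ratio of Id2 to Id4 moved as well, from 2.18 and 1.94 to 4.07 and 3.96, whereas that of Id2 to Id1 overlapped between the groups.

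**Figure D2:**
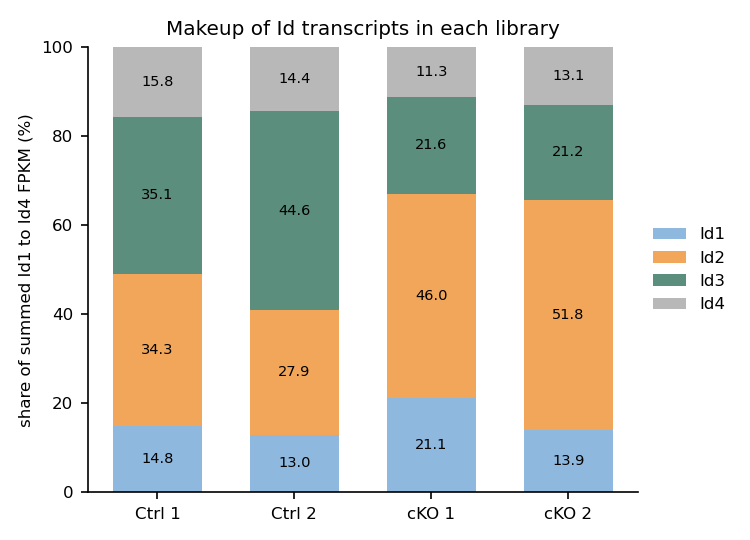
Share (vertical axis, percent, from 0) of Id1, Id2, Id3 and Id4 in their summed FPKM in each of the 4 libraries. The Id3 share is 35.1% or more in the controls and near 21% in cKO, and the Id2 share goes the other way.

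The order of levels changed between the groups. In the controls it ran from Id3 at 83.0 FPKM through Id2, Id4, Id1, Zeb2, Bmpr1a, Smad7, Bmp4 and Smad1 to Smad6 at 0.77 FPKM. Neighbors whose libraries overlapped were Id4 and Id1, Zeb2 and Bmpr1a, and Bmp4 and Smad1. In cKO the order ran from Id2 at 100.4 FPKM through Id3, Id1, Id4, Bmpr1a, Smad1, Zeb2, Smad7 and Bmp4 to Smad6 at 1.01 FPKM, with no overlap between neighbors. Zeb2 and Bmpr1a were level in the controls, at a ratio of 0.98 and 1.19, and Zeb2 was at 0.52 and 0.56 times Bmpr1a in cKO 1 and 2.

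Few other genes of the pathway passed the test. Of 90 genes on 7 lists of ligands, receptors, Smads, antagonists, Smad regulators, Id partners and response genes, 61 were tested, 2 fell and 1 rose, and the median change was -0.06 on the log2 scale (-0.00277 over all tested genes). Both shares are below those over all genes, given above. The genes that fell were Olig1 and Olig2, and the gene that rose was Sostdc1.

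Among 17 other ligands of the BMP and GDF group, 4 were tested and none was called (limma, lowest adjusted p = 0.0547, for Gdf10). Bmp7, known from the meninges and the roof plate, was at 5.20 and 5.97 FPKM in the control libraries against 7.96 and 7.03 FPKM in cKO. Gdf10 was at 4.23 and 3.92 FPKM against 6.24 and 5.52 FPKM, Bmp6 at 3.33 and 2.55 FPKM against 1.92 and 2.35 FPKM, and Gdf11 at 5.34 and 5.84 FPKM against 4.31 and 4.45 FPKM. In the controls Bmp4 was thus the most abundant of these ligands, and in cKO Bmp7, Gdf10 and Gdf11 each lay above it in both libraries.

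None of 13 tested receptors and co-receptors was called, and their median was -0.01. Bmpr2, the type II receptor, was at 7.89 and 4.45 FPKM in the control libraries against 4.89 and 6.26 FPKM in cKO, and Bmpr1b at 4.45 and 3.12 FPKM against 2.71 and 4.05 FPKM. Both overlapped between the groups. Tgfbr1, with the largest change of the 13, was at 6.94 and 5.50 FPKM in the control libraries against 4.08 and 4.96 FPKM in cKO. Its groups did not overlap (log2 fold change -0.38, limma adjusted p = 0.109). Among fits that kept all 4 libraries, Tgfbr1 was called lower only with the crossed replicate block. Bmpr2, Bmpr1b and Tgfbr1 were chosen for naming after their values were seen. The co-receptors Rgma and Rgmb had log2 fold changes of 0.17 and 0.23. None of the 5 other Smads was called. Smad5, which carries the BMP signal beside Smad1, had a log2 fold change of -0.15, and Smad4, the common partner, of -0.15.

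Of 12 tested extracellular antagonists and modulators, 1 rose and none fell, with a median of 0.12. Sostdc1, a secreted antagonist of BMPs, was at 1.69 and 0.92 FPKM in the control libraries against 2.61 and 1.95 FPKM in cKO (log2 fold change 0.52 ± 0.17 SE, limma adjusted p = 0.0385). At this low level the call did not pass without control 2 (adjusted p = 0.338), without cKO 1 (0.579), or under median-of-ratios, TPM or quantile scaling. The more abundant members Fstl1, Bmp1, Crim1 and Twsg1 had log2 fold changes of 0.01, -0.35, 0.35 and -0.05, and none passed. None of 14 tested intracellular Smad regulators was called, with a median of -0.12. The most abundant were Stub1, a ubiquitin ligase, at a log2 fold change of 0.31, Ppm1a, a phosphatase for activated Smads, at 0.15, the deubiquitinase Usp9x at -0.13, and Ski, a corepressor of Smads, at 0.15. Of the 14, 8 lay below 0, as did 6521 of all 12913 tested genes. Hipk2, a kinase named after its values were seen, was at 10.5 and 9.13 FPKM in the control libraries against 5.24 and 8.60 FPKM in cKO (log2 fold change -0.48, limma adjusted p = 0.0552), and it passed without control 2, without cKO 2, at a mean FPKM of at least 5, with robust moderation and with the crossed replicate block.

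Of 9 basic helix-loop-helix genes, among them the E proteins that ID proteins bind, Olig1 and Olig2 fell and none rose. Olig1 was at 224 and 312 FPKM in the control libraries against 148 and 139 FPKM in cKO (limma adjusted p = 0.00457), and Olig2 at 55.5 and 74.9 FPKM against 36.1 and 42.8 FPKM (adjusted p = 0.00635). Neither passed without control 2 (adjusted p = 0.204 and 0.156), and Olig2 did not without cKO 1 (0.147). The 3 E protein genes did not pass, with log2 fold changes of -0.33 for Tcf4, -0.30 for Tcf12 and -0.06 for Tcf3 (limma adjusted p = 0.190, 0.246 and 0.845). Hey1, a transcriptional repressor, did not pass either (log2 fold change -0.06, limma adjusted p = 0.861).

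**Figure D3:**
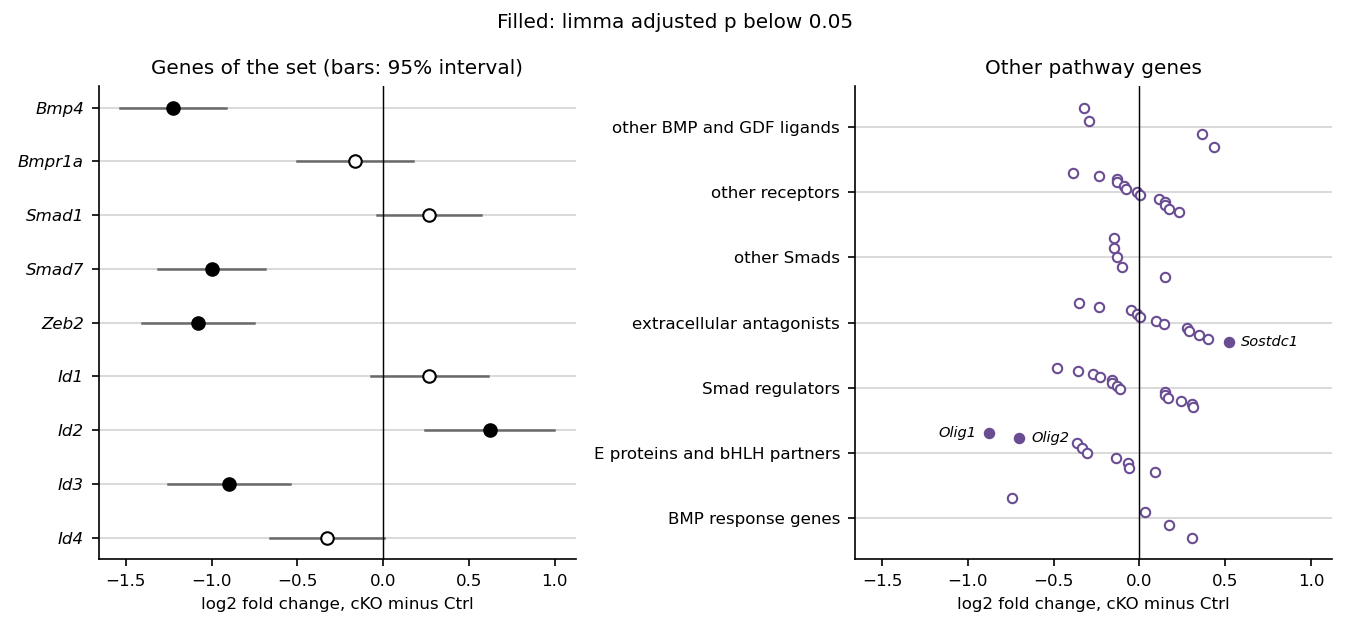
Log2 fold change of cKO against control (horizontal axes) for the 9 tested genes of the set with 95% intervals (left), and for the tested genes of each other pathway list (right), with filled points for limma adjusted p under 0.05. On the left 4 filled points lie below 0 and Id2 above, and on the right Olig1, Olig2 and Sostdc1 are filled.

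Genes reported elsewhere as responding to BMP were mostly too low to test. Of 12 such genes, 4 were tested and none was called. Gfap, an astrocyte filament gene, was at 758 and 938 FPKM in the control libraries against 351 and 723 FPKM in cKO 1 and 2 (log2 fold change -0.74, limma adjusted p = 0.0965). Among fits that kept all 4 libraries, it was called lower at a mean FPKM of at least 5, without the mean-variance trend, with robust moderation and with the crossed replicate block. Hey2, Sox9 and Gata2 had log2 fold changes of 0.03, 0.17 and 0.31. Over all 12 genes, tested or not, both cKO libraries lay below both controls for 7 and above for 2, where 27.1% and 22.4% of all genes with a value above 0 do so. The homeobox gene Msx2 was at 1.04 and 1.18 FPKM in the control libraries against 0.33 and 0.41 FPKM in cKO, and Msx1 at 0.91 and 1.25 FPKM against 0.34 and 0.58 FPKM. Atoh8 was at 1.12 and 1.37 FPKM against 0.62 and 0.81 FPKM, and Bambi, a decoy receptor, at 1.11 and 1.16 FPKM against 0.83 and 0.90 FPKM. These 4, and Dlx2 and Dlx5 at under 0.25 FPKM throughout, were named after their values were seen, and no test supports a difference in them.

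Markers of newly formed and myelinating oligodendrocytes moved with Bmp4, Smad7, Zeb2 and Id3. In a whole cord, fewer cells of a type and less RNA per cell cannot be told apart. All 8 markers of newly formed oligodendrocytes fell, and they summed to 386 and 398 FPKM in the control libraries against 141 and 189 FPKM in cKO 1 and 2. Of 8 markers of myelinating oligodendrocytes 7 fell, with sums of 15588 and 17800 FPKM against 6422 and 10044 FPKM. Of 8 precursor markers, Olig1, Olig2 and Sox10 fell, and the other 5 did not pass. Pdgfra was at 20.1 and 16.0 FPKM in the control libraries against 19.7 and 22.6 FPKM in cKO (limma adjusted p = 0.425). Cspg4, Ptprz1, Lhfpl3 and Pcdh15 had log2 fold changes of 0.26, 0.13, 0.07 and -0.10. The same library, cKO 1, was the lower cKO library for both sums and for Bmp4, Smad7, Zeb2 and Id3. It was also the lower one for Bmpr1a, Smad1, Id2 and Id4, but not for Id1 or Smad6.

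How far the lower genes differed relative to the lineage depended on the lineage genes they were set against. Against the newly formed marker sum, Bmp4, Smad7 and Zeb2 differed little, and Id3 lay higher in cKO. Zeb2 was 4.61% and 4.06% of the newly formed marker sum in the controls and 4.31% and 4.86% in cKO, and Bmp4 was 2.20% and 2.62% against 2.37% and 1.89%. The groups overlapped for both. Smad7 was 2.75% and 2.94% of that sum in the controls and 3.08% and 3.11% in cKO, a log2 difference of 0.12. Against Gpr17, a receptor of newly formed oligodendrocytes, Bmp4 was at 0.079 and 0.091 times in the controls and 0.102 and 0.091 times in cKO. Against the myelinating marker sum, Bmp4 lay lower in both cKO libraries, with 0.0545% and 0.0587% in the controls and 0.0522% and 0.0356% in cKO, and Smad7, Zeb2 and Id3 overlapped between the groups. Against Sox10, which marks the whole lineage, Bmp4, Zeb2 and Smad7 were lower in both cKO libraries than in both controls, with log2 differences of -0.74, -0.47 and -0.43. The same held against Olig2, with differences of -0.73, -0.46 and -0.42, although Zeb2 was nearly level in control 2 (0.216 times) and cKO 2 (0.215 times). Against Pdgfra, Bmp4 was at 0.42 and 0.65 times in the controls and 0.17 and 0.16 times in cKO, a log2 difference of -1.68. The exact permutation test gave a two-sided p = 0.333, the smallest possible, for each ratio whose groups did not overlap. Id3 was 19.2% and 23.1% of the newly formed sum in the controls and 29.7% and 24.1% in cKO, a log2 difference of 0.35. Id3 was not set against Gpr17, Sox10, Olig2 or Pdgfra. The part of lineage cell numbers in the results was not tested.

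Markers of other cell types are given beside these values, since Id1, Id3 and Smad6 are known from vessels, Id genes from astrocytes, and BMPs from meninges. None of 8 endothelial and pericyte markers was called, and they summed to 91.2 and 94.1 FPKM in the control libraries against 102 and 77.2 FPKM in cKO. Among 8 astrocyte markers, Slc1a3 was called higher and none lower, with sums of 1811 and 2016 FPKM against 1444 and 1858 FPKM. Both cKO libraries lay below both controls for 3 of the 8 and above both for 3, where 29.3% and 24.3% of all tested genes do so. Gfap and Aqp4 were among the lower ones, with log2 fold changes of -0.74 and -0.51 that did not pass. Of 8 neuron markers, Slc32a1 rose, and the sum was 1621 and 1584 FPKM in the control libraries against 2460 and 2053 FPKM in cKO. Of 8 microglia markers 3 fell, with sums of 118 and 119 FPKM against 97.0 and 99.7 FPKM. Of 8 meningeal markers 6 fell, and control 1 was the highest library for each of the 8. No marker of these 5 lists was at 0 in any library. Without control 1, Bmp4, Smad7, Zeb2 and Id3 had log2 fold changes of -1.36, -1.06, -1.01 and -1.05, and Id2 of 0.78.

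**Figure D4:**
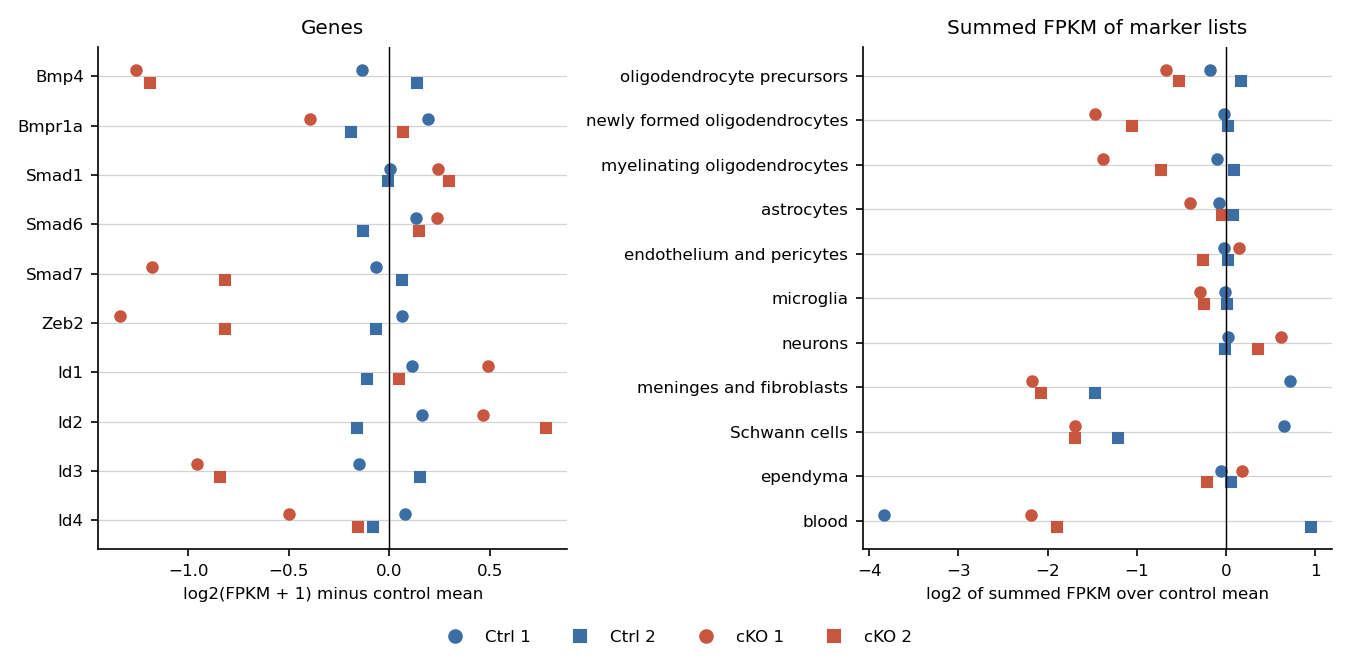
Left, log2(FPKM + 1) of each gene minus the control mean, and right, log2 of the summed FPKM of each marker list over the control mean (horizontal axes), for controls 1 and 2 (blue circle, square) and cKO 1 and 2 (red circle, square). Bmp4, Smad7, Zeb2 and Id3 lie to the left in cKO, as do the newly formed and myelinating oligodendrocyte sums, while control 1 lies to the right of all other libraries for meninges and Schwann cells.

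The genes whose 4 values ran closest to those of the called genes were looked up over 11865 tested genes, by the root mean square difference of log2(FPKM + 1) centered on each gene's mean over the 4 libraries. For Bmp4 they were Fhl3, Fah and Rtkn2 (differences of 0.03 to 0.05), and for Smad7 Inppl1, Phldb1 and Eml1 (0.03 to 0.05). For Zeb2 they were Lpar1, Evi2a and Dock10 (0.03 to 0.04), with Lpar1 at 31.4 and 28.0 FPKM in the control libraries against 10.7 and 15.5 FPKM in cKO. For Id3 they were Sept4, Parvb and Lpar6 (0.02 to 0.04), with Sept4 at 90.3 and 112 FPKM in the control libraries against 53.0 and 55.8 FPKM in cKO. For Id2 they were Sdc4, Pcdhga3 and Tmem181a (0.05 to 0.06), with Sdc4 at 27.6 and 23.3 FPKM in the control libraries against 33.5 and 44.3 FPKM in cKO. With 4 libraries, closeness of this kind is a description of their values.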

How the data were processed

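The authors deposited 1 table per library of FPKM and coverage for 28107 RefSeq transcripts, in the layout of Cufflinks per the file headers. The submitters' processing notes list CASAVA, TopHat, Cufflinks and Cuffdiff without versions, and the build mm9. Coverage is a signal of mean depth per base, deposited by the authors, and its ratio to FPKM gave relative depth. The number of reads per library was not given in the sources used. In 315 rows Cufflinks had not marked the estimate OK for every library, and these were dropped. FPKM was summed per symbol over transcripts of at least 300 bases. Genes with a mean of at least 1 FPKM were tested as log2(FPKM + 1), a scale that understates changes of low genes, with limma 3.58.1 in R 4.3.3 by genotype, with a mean-variance trend (36.3 prior and 2 residual degrees of freedom, so the spread is mostly pooled over genes), Benjamini-Hochberg adjusted at 0.05. The code was tested on simulated data. Members, lists and tests were chosen with earlier results of these data known. Named were all 10 genes, list genes past the threshold, and up to 4 abundant genes per list. Starts were raised by 1 to count from 1. Alternatives were pseudocounts, filters, scalings, variance models, a replicate block and leaving out each library.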

Additional observations from a re-analysis of the deposited data

How the results depend on the processing

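Bmp4, Smad7, Zeb2 and Id3 stayed lower at every setting tried, also without each library in turn. They passed under all 3 scalings, both other pseudocounts, the other variance models and the replicate block. Their calls depend on how the spread is pooled over genes. The prior degrees of freedom were infinite with robust moderation, the replicate block, a mean of at least 5 FPKM or any library left out. In those fits a gene's own spread had no weight. The prior was 4.11 with no filter, 4.15 with rows under 300 bases summed in and 2.71 with transcripts fitted alone. With no filter none of the 10 genes was called (0 lower, 0 higher; limma adjusted p = 0.0505, 0.0755, 0.0836 and 0.0766 for Bmp4, Smad7, Zeb2 and Id3 at fold changes of -1.22, -1.00, -1.08 and -0.90), with 33 genes lower and 22 higher in the whole table, 3374 at an unadjusted p under 0.05, and 0 and 0 pathway genes. With transcripts fitted alone, 0 and 0 of the 10 were called at the same fold changes (adjusted p = 0.161 to 0.218 for these 4). With rows under 300 bases summed in, 1 was lower (Bmp4) and 0 higher, and Smad7, Zeb2 and Id3 did not pass (-1.00, -1.08 and -0.90), with 30 and 23 genes of the whole table and 0 and 0 of the pathway. Each of the 10 genes is 1 long transcript, so its own values are the same in these fits.

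Id2 (0.62) did not pass in any of those 3 fits, with a replicate block (0.62), or under TPM (0.59) or quantile scaling (0.56), which left 0 genes of the set higher. The whole-table counts were 460 and 204 under TPM and 414 and 303 under quantile scaling, and no scaling moved the median of all genes by over 0.1. Of pathway genes, 4 were lower and 0 higher at a mean of at least 5 FPKM, 4 and 2 with robust moderation, and 0 were higher without the trend and under each of the 3 scalings.

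Leaving out 1 library gave 0 to 1 genes of the set higher, 0.46 to 0.78 for Id2, -0.40 to 0.0664 for Bmpr1a (0.0257 without control 1), 1 to 4 pathway genes lower and 0 to 3 higher, 277 to 900 genes lower and 107 to 555 higher.

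The replicate numbers name libraries only. Deviations of same-numbered libraries correlated at -0.24 across genes. A replicate block gave 351 genes higher and 0 genes higher of the set and of the pathway, and the crossed pairing, chosen after seeing the data, gave 943 higher in the whole table, and 5 pathway genes lower and 3 higher. Control 2 was the shallowest library, and depth limits Smad6 most.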
